A study of Mus musculus with 2 samples.

Results

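The genes of glycolysis, the pentose phosphate pathway and hypoxia control were followed in 2 RNA-sequencing libraries of mouse macrophages. The members were 38 named genes out of 15623 genes listed in 1 or both libraries. They were chosen by name for the steps of these pathways, with earlier results of these data known. All 38 were matched by gene number, and 37 had reads in both libraries. Only Pdk4 was listed in neither. The cells were macrophages lavaged from the peritoneal cavity of wild-type (WT) C57BL/6 mice aged 6 to 8 weeks, collected 4 to 5 days after injection of 4% thioglycolate and purified by adherence for 4 h. Both cultures were then starved in 0.5% serum. One was left nontreated (NT) and the other was stimulated for 6 h with mouse interleukin-4 (IL-4, 20 ng per mL per the methods of the study), the cytokine that drives alternative (M2) polarization. The source label reads peritoneal macrophages whereas the tissue label reads bone marrow, and the number of mice behind a library is not stated.

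Glycolysis splits glucose into pyruvate in the cytosol, and lactate dehydrogenase turns that pyruvate into lactate. Phosphofructokinase is its main control point, and fructose 2,6-bisphosphate, made and removed by the PFKFB enzymes, is the strongest activator of that step. The pentose phosphate pathway branches off at glucose 6-phosphate and supplies NADPH and ribose. Hypoxia-inducible factor 1 alpha (HIF-1α) switches on many glycolytic genes, and prolyl hydroxylases of the Egln family mark it for destruction through the Vhl ubiquitin ligase when oxygen is present. Classically activated macrophages are known for high glycolysis, whereas IL-4-activated macrophages are known to rely more on oxidative metabolism.

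The libraries held 11035641 (NT) and 11250099 (IL-4) expected counts, and each group had 1 library. No difference below was therefore checked against the spread between replicates, and a test sets one library against the other rather than the conditions. Intervals are exact 95% intervals for counting error only, and reads amplified by PCR are not independent molecules. The 8 M2 genes named by the study were all called higher in the IL-4 library, by the calling rule given below. If the study picked them on these libraries, this is not independent evidence of a response. All 8 macrophage markers were listed in both libraries, with a summed abundance of 17095 CPM (counts scaled to the library total) in NT and 17408 in IL-4. Csf1r was called higher and Cd14 lower among them. Summed markers were 157 and 128 CPM for mesothelial cells and fibroblasts and at most 9.61 CPM for neutrophils, eosinophils, mast cells and basophils, B cells, T and NK cells and erythroid cells, each list lower in the IL-4 library. Of the neutrophil markers, S100a9, Ly6g, Mpo, Camp and Retnlg were listed in neither library, and Epx, Ccr3 and Ear1 were likewise absent among the eosinophil markers. The adipocyte list summed to 372 and 456 CPM, but nearly all of it was Fabp4, which macrophages also express. Adipoq had 0 and 139 counts, while Plin1, Lep and Cfd were listed in neither library. Among the markers of other cells, mesothelial Msln (12 and 2 counts) and eosinophil Siglecf (53 and 27 counts) were called lower, and Adipoq was called higher. The part of other cells in the results below was not tested. In RNA from bulk cultures, fewer cells of a type and less RNA per cell cannot be told apart.

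Most members had small ratios between the libraries, and the 4 that were called were isoforms of hexokinase, phosphofructokinase and the PFKFB enzymes. To be called, a gene needed a log2 CPM ratio (IL-4 over NT) of 0.75 or more in size (1.68-fold), an exact binomial p of at most 0.05 and a Benjamini-Hochberg (BH) value over all genes of at most 0.5. Hexokinase 2 (Hk2) and the platelet-type phosphofructokinase (Pfkp) rose, and the liver-type phosphofructokinase (Pfkl) and Pfkfb2 fell. The BH value of the exact binomial test was 5.07e-68 for Hk2, 1.98e-68 for Pfkp, 2.05e-28 for Pfkl and 4.39e-10 for Pfkfb2, counting error only. Thus 2 of 37 members (5.41%) were called higher and 2 of 37 lower. Over all 15593 genes tested, 4.07% were called higher and 6.28% lower, and among the 9679 genes with 100 reads or more in all the shares were 3.87% and 6.32%. The share of members called was near this background and is not a result about them. Of the 37, 19 (51.4%) had a log2 ratio within 0.25 of 0, beside 51.0% of the same 9679 genes. Their median log2 ratio was -0.02, beside -0.03 for all genes. With a trend of the ratio with transcript length subtracted, as described below, these medians were -0.15 and -0.05. Together the members took 1.06% of the reads in NT (95% Clopper-Pearson interval 1.05% to 1.06%) and 1.09% in IL-4 (1.09% to 1.10%). By counting error alone, the interval of the log2 ratio lay above 0 for 12 members and below 0 for 10, and it included 0 for 15. Over all genes 17.9% of intervals lay above 0 and 20.4% below, and over the genes with 100 reads or more 26.0% and 28.9%. With the length trend subtracted, 9 members were above 0 and 15 below, beside 16.0% and 18.3% of all genes and 23% and 25.6% of the genes with 100 reads or more, so the balance of the members between the directions depended on that step.

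**Figure D1:**
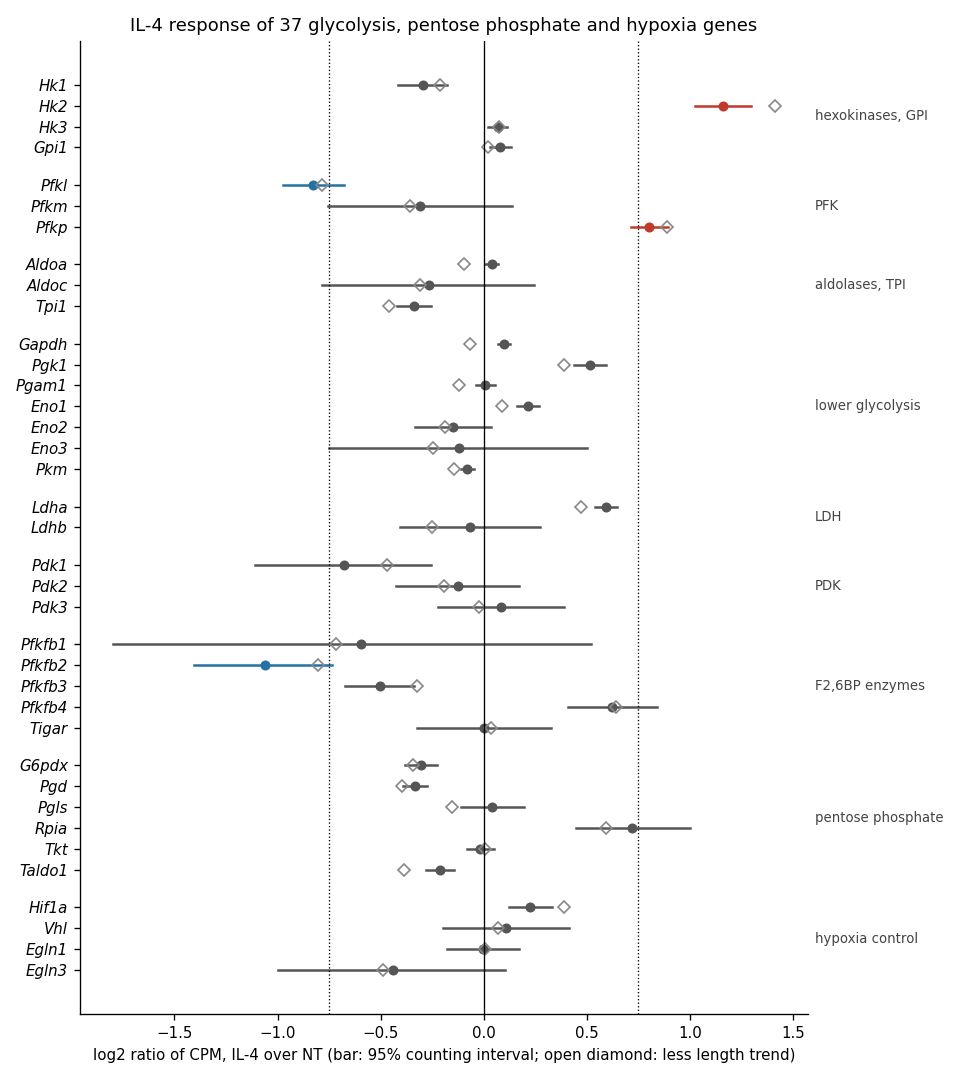
Log2 ratio of CPM (IL-4 over NT, 1 library each) for the 37 listed members, grouped by role. Points show the ratio, bars the 95% counting interval and open diamonds the ratio after the length trend was subtracted; red points are called higher, blue points called lower and grey points not called, and dotted lines mark 0.75 in either direction. Hk2 (1.16) and Pfkp (0.80) lie to the right of the dotted lines, and Pfkl (-0.83) and Pfkfb2 (-1.06) to the left.

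Upstream sequence of 3 of the 4 called genes is shown, namely Hk2, called higher, and Pfkl and Pfkfb2, called lower. Windows were the 250 bases before each start in a RefSeq promoter table (GRCm38.p6), read 5′ to 3′ on the strand of the gene. Capitals mark the core of the hypoxia response element, searched as ACGTG and GCGTG on both strands, with overlapping matches joined. A match is a run of letters and does not show binding. Hk2 lies on chromosome 6, Pfkp on chromosome 13, Pfkl on chromosome 10 and Pfkfb2 on chromosome 1, and all 4 are on the minus strand. The Hk2 window lies outside the gene and outside annotated exons. The Pfkl window lies outside the RefSeq gene, but 53 of its bases are in a GENCODE exon, so only the 197 bases nearest the start are printed. The Pfkfb2 window lies within the span of the gene, outside annotated GENCODE exons, at 1 of 3 listed starts. The Pfkp window lies inside the RefSeq gene span, just below another start, and is not printed.
Hk2, chr6:82774455-82774704: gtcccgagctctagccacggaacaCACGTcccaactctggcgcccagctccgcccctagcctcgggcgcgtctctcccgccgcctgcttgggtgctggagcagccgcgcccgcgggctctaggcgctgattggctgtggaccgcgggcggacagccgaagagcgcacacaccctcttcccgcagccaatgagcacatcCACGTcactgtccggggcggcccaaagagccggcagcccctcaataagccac
Pfkl, chr10:78009808-78010004: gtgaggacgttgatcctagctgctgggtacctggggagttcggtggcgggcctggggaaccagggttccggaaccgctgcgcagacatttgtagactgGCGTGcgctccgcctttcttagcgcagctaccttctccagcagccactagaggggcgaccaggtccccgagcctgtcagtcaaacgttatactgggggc
Pfkfb2, chr1:130716049-130716298: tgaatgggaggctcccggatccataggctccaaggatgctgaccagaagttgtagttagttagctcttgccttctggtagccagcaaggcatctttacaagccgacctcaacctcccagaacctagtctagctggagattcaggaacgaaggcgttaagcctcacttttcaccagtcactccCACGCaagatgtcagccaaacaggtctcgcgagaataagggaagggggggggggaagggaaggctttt

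The core occurred at 2 places before Hk2, 3 before Pfkp, 1 before Pfkl and 1 before the Pfkfb2 start shown. Whether the core bears on the direction of a gene was not tested. The other Pfkfb2 windows held 3 and 1. Of the 58 promoter windows listed for the 38 members, 32 overlapped the RefSeq span of their own gene, and 43 (74.1%) held at least 1 core, beside 52.4% of 15320 promoters of tested genes and 38.6% of all 32851 promoters in the table. Several windows can belong to 1 gene (4 each for Pfkm and Pfkfb1), so windows are not independent. Over the tested genes, no share by gene and no share of overlapping windows was computed, and the difference in cores was not tested. The median GC content was 59.0% for the promoters of members and 58.8% for those of tested genes. A palindromic STAT6-type motif, TTCNNNNGAA, occurred in none of the windows of the 4 called genes. It was present in 5 of the 58 promoters (8.62%), before Gpi1, Hif1a, Hk3, Ldha and Pgd, beside 4.73% of the promoters of tested genes.

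Levels of different genes were compared as FPKM, which is scaled for transcript length. Gapdh, which makes 1,3-bisphosphoglycerate, had the highest level of the members (1351 FPKM in NT and 1448 in IL-4), followed by Aldoa (944 and 968 FPKM), the aldolase that cleaves fructose 1,6-bisphosphate, and Pkm (675 and 639 FPKM), the pyruvate kinase. In NT, 14 members were at 100 FPKM or more and 13 were under 10 FPKM. Phosphofructokinase had the lowest summed level of the 10 glycolytic steps from glucose to pyruvate in both libraries, 61.8 FPKM in NT and 75.5 FPKM in IL-4. Hexokinase summed to 262 and 281 FPKM, aldolase to 946 and 970 FPKM and enolase to 266 and 304 FPKM. Pearson r between NT and IL-4 log2 FPKM over the 37 members was 0.990, given as a description, since the genes share the 2 libraries.

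**Figure D2:**
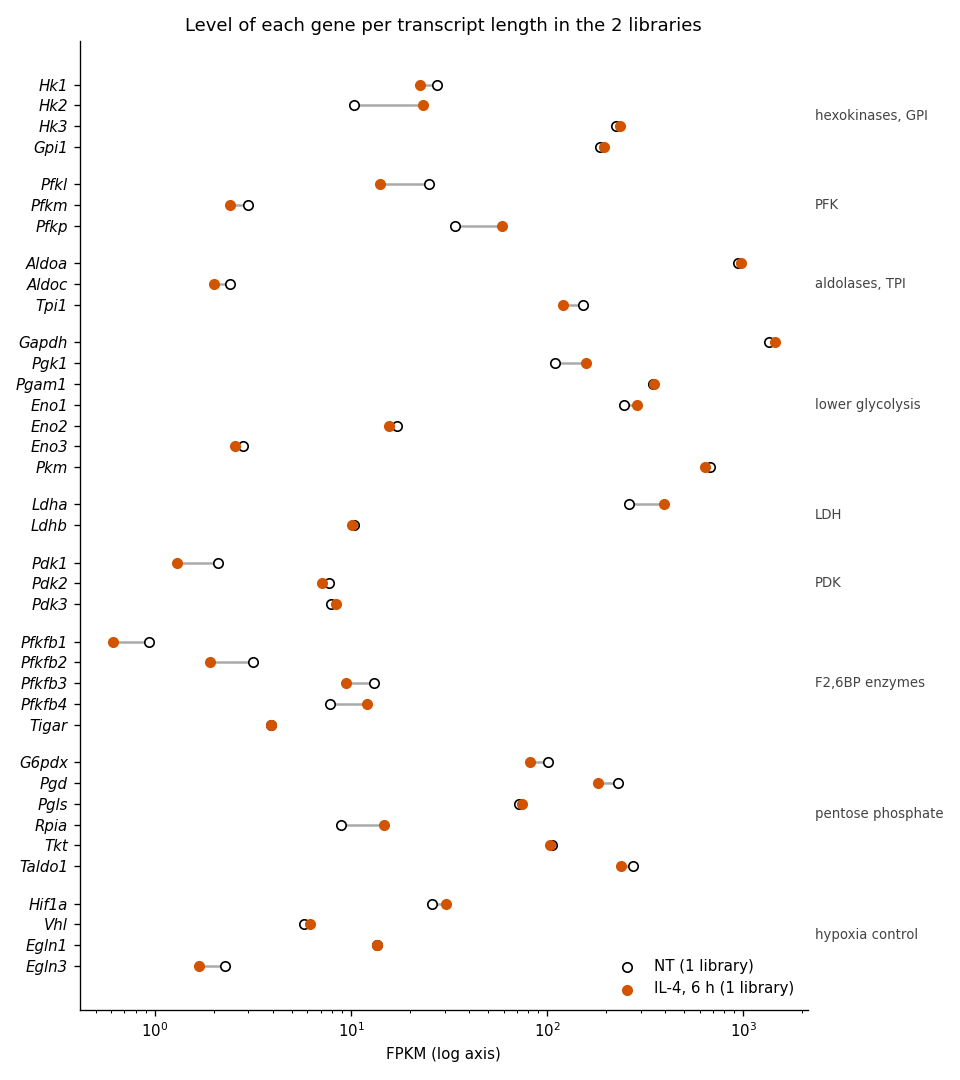
FPKM on a log axis for each listed member in the NT library (open circles) and the IL-4 library (orange), grouped by role, 1 library each. The order of the genes by level was largely kept, from Gapdh (1351 FPKM in NT) to Pfkfb1 (0.93 FPKM), and the longest grey lines belong to Hk2, Pfkl and Pfkp.

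Hexokinases trap glucose in the cell by phosphorylating it. Hk2, the inducible isoform, had 640 counts in NT and 1459 in IL-4, or 10.4 and 23.2 FPKM. It rose 2.24-fold, with a log2 ratio of 1.16 (interval 1.03 to 1.30). Hk1, the widely expressed isoform, had 1270 and 1055 counts (27.4 and 22.4 FPKM), a log2 ratio of -0.30 that was not called. The 2 isoforms thus stood at 0.378 Hk2 per Hk1 on the FPKM scale in NT and at 1.04 in IL-4, and the ratio of their reads changed by 1.46 on the log2 scale (interval 1.28 to 1.64). Hk3, the myeloid isoform, made up most of the hexokinase level in both libraries, with 225 and 235 FPKM, or 85.6% and 83.8% of the 3 isoforms. Its log2 ratio was 0.07. The share of Hk2 was 3.96% in NT and 8.26% in IL-4. Gpi1, which converts glucose 6-phosphate to fructose 6-phosphate, had 185 and 195 FPKM, a log2 ratio of 0.08.

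Phosphofructokinase was the step with isoforms called in both directions. Pfkp had 1521 counts in NT and 2706 in IL-4 (33.9 and 59.1 FPKM). It rose 1.74-fold, with a log2 ratio of 0.80 (interval 0.71 to 0.89, which included the threshold). Pfkl had 1037 and 596 counts (24.9 and 14.0 FPKM). It was 1.77-fold lower in IL-4, with a log2 ratio of -0.83 (interval -0.97 to -0.68, which also included the threshold). The muscle-type isoform, Pfkm, was scarce, with 96 and 79 counts, and its interval of -0.76 to 0.14 included 0. Pfkp made up 54.8% of the 3 isoforms in NT and 78.2% in IL-4, and Pfkl 40.3% and 18.6%. The ratio of Pfkp to Pfkl reads changed by 1.63 on the log2 scale, or 3.09-fold, with an interval from 1.46 to 1.80. This ratio within a library does not depend on how the libraries are scaled. The typical ratios of genes of the lengths of Pfkp and Pfkl differed by -0.04. For other pairs this difference could be larger, as far as -0.38 (Pfkfb2 to Pfkfb1) or 0.31 (Pdk3 to Pdk1). It was -0.17 for Hk2 to Hk1, 0.16 for Pfkfb4 to Pfkfb3 and 0.24 for Pfkfb4 to Pfkfb2.

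**Figure D3:**
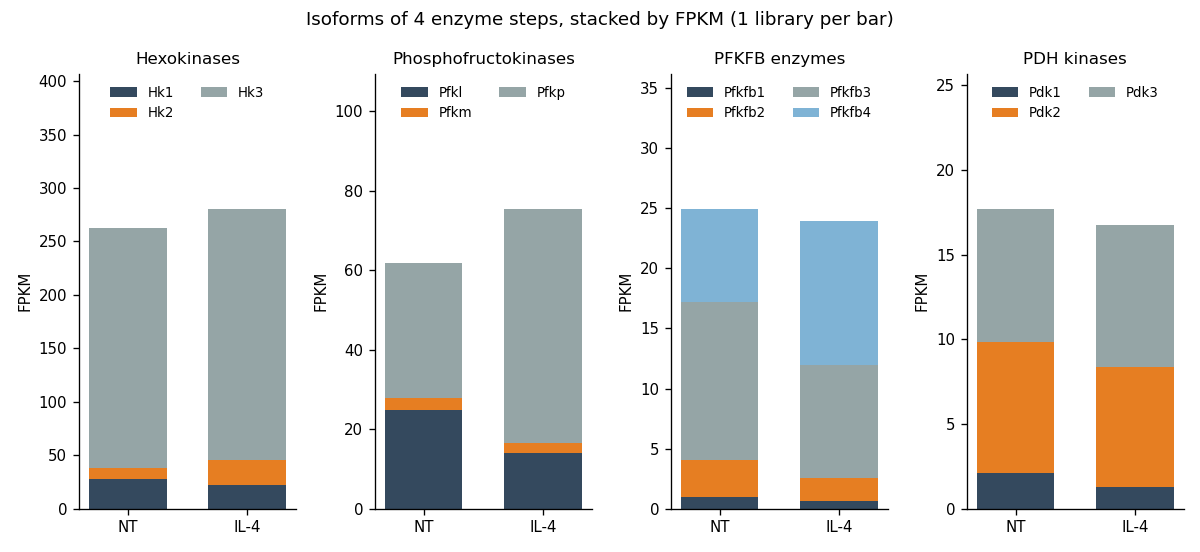
Stacked FPKM of the isoforms of hexokinase, phosphofructokinase, the PFKFB enzymes and pyruvate dehydrogenase (PDH) kinase in the NT and IL-4 libraries (1 library per bar, bars start at 0, each panel with its own axis). Pfkp takes 78.2% of the phosphofructokinase bar in IL-4 and 54.8% in NT, and Pfkfb4 takes 50.2% and 31.3% of the PFKFB bar.

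The PFKFB enzymes set the level of fructose 2,6-bisphosphate, and Tigar lowers it as a bisphosphatase. Pfkfb2 had 231.56 counts in NT and 112.75 in IL-4, and its log2 ratio was -1.06 (interval -1.40 to -0.74, which just included the threshold). Its length, weighted over 4 transcripts, was 6570 bases in NT and 5150 in IL-4, 21.6% shorter, as RSEM estimated a different mix of them. On the FPKM scale, where this length is divided out, it went from 3.15 to 1.92 and missed the threshold. Pfkfb3, the isoform with the highest kinase relative to phosphatase activity, had 717 and 515 counts (13.1 and 9.40 FPKM), and its log2 ratio was -0.50 (interval -0.67 to -0.34). Pfkfb4 had 293 and 460 counts (7.81 and 12.0 FPKM), and its log2 ratio was 0.62 (interval 0.41 to 0.84). Neither was called, but their read ratio changed by 1.13 on the log2 scale (interval 0.85 to 1.40) in favour of Pfkfb4. Pfkfb3 made up 52.4% of the PFKFB level in NT and 39.3% in IL-4, whereas Pfkfb4 went from 31.3% to 50.2%. The summed level of the 4 genes was 25.0 FPKM in NT and 23.9 FPKM in IL-4. Pfkfb1 had 18 and 12 counts, too few to place its ratio, and Tigar had 159 and 162 counts, a log2 ratio of 0.00.

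From aldolase to pyruvate kinase no enzyme was called, and the log2 ratios ran from -0.34 (Tpi1) to 0.52 (Pgk1). Aldoa had a log2 ratio of 0.04, Gapdh 0.10, Pgam1 (phosphoglycerate mutase) 0.01 and Pkm -0.08. Eno1, the main enolase, had 4962 and 5871 counts, a log2 ratio of 0.21, and made up 92.5% of the enolase level in NT and 94.0% in IL-4. Tpi1, which interconverts the triose phosphates, had 2682 and 2165 counts, a log2 ratio of -0.34. Pgk1, the first ATP-yielding enzyme of the pathway, had 2228 and 3248 counts (110 and 157 FPKM), and its log2 ratio was 0.52 (interval 0.44 to 0.59). Aldoc (72 and 61 counts), the brain-type aldolase, Eno2 (512 and 471 counts), the neuronal enolase, and Eno3 (47 and 44 counts), the muscle enolase, had intervals that included 0.

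Ldha, the lactate dehydrogenase subunit that favours lactate, had 4766 and 7332 counts, or 261 and 394 FPKM. Its log2 ratio of 0.59 (interval 0.54 to 0.65) lay wholly under the threshold, so it was not called despite many reads. Ldhb, the subunit of oxidative tissues, had 149 and 145 counts (10.4 and 10.1 FPKM). The ratio of Ldhb to Ldha reads changed by -0.66 on the log2 scale (interval -1.005 to -0.32). The pyruvate dehydrogenase kinases, which inhibit pyruvate dehydrogenase and so the conversion of pyruvate to acetyl-CoA, were all low. Pdk1, a HIF-1α target, had 121 and 77 counts (2.09 and 1.30 FPKM), and its log2 ratio of -0.68 (interval -1.11 to -0.26) was not called. Pdk2 had 195 and 182 counts and Pdk3 174 and 188 counts, and both intervals included 0. Pdk4 had 0 counts in both libraries, which allows up to 0.272 CPM in NT and 0.267 CPM in IL-4 (3 counts of the total).

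No gene of the pentose phosphate pathway was called. The NADPH-yielding dehydrogenases G6pdx (2967 and 2449 counts) and Pgd (5641 and 4565 counts) had log2 ratios of -0.30 and -0.33, with intervals from -0.38 to -0.23 and from -0.39 to -0.28. Pgls, the lactonase between them, had 72.1 and 74.1 FPKM, a log2 ratio of 0.04. In the non-oxidative arm, which rearranges sugar phosphates, Taldo1 (transaldolase, 275 and 237 FPKM) had a log2 ratio of -0.21 and Tkt (transketolase, 105 and 104 FPKM) one of -0.02. Rpia, which makes ribose 5-phosphate, had the lowest level of the 6, 8.94 and 14.7 FPKM (176 and 296 counts). Its log2 ratio of 0.72 (interval 0.45 to 0.9997) fell just short of the threshold. It passed with TMM scaling (0.76). It did not pass with median-of-ratios scaling (0.748) or with a total that leaves out the top 100 genes (0.70). The 2 oxidative dehydrogenases and the ribose-forming isomerase thus had ratios on opposite sides of 0.

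The genes of hypoxia control had log2 ratios from -0.44 (Egln3) to 0.23 (Hif1a). Hif1a had 1365 and 1628 counts (26.0 and 30.3 FPKM), and its log2 ratio was 0.23 (interval 0.12 to 0.33). Vhl had 174 and 191 counts and Egln1, the main HIF prolyl hydroxylase, 534 and 543 counts, with log2 ratios of 0.11 and 0.00. Egln3, a hydroxylase that is itself induced by HIF, had 68 and 51 counts, and its interval of -0.996 to 0.10 included 0. None of the 4 was called. HIF-1α is controlled mainly through protein stability, which these libraries do not measure.

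Ratios fell with transcript length over the whole transcriptome. Over the 8463 genes that reached 200 reads, the log2 ratio had a Spearman correlation of -0.45 with transcript length, and across the 37 members it was -0.13, both as descriptions over genes that share the libraries. With 1 library per group, a response of long transcripts and a difference in library preparation cannot be told apart. A running median over genes of neighbouring length was therefore subtracted as an alternative, and the same 4 members were called, beside 3.99% of all genes higher and 4.74% lower. Hk2 (5524 bases) then had a log2 ratio of 1.41, Pfkp (4033 bases) 0.89, Pfkl (3741 bases) -0.79 and Pfkfb2 -0.81. The ratio of Hif1a, a transcript of 4715 bases in NT, was 0.39. For the short transcripts of lower glycolysis the ratios fell, to 0.47 for Ldha, 0.39 for Pgk1 and -0.06 for Gapdh, whose direction turned. Pdk1 was at -0.47 and Pfkfb3 at -0.33, and Rpia at 0.59.

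**Figure D4:**
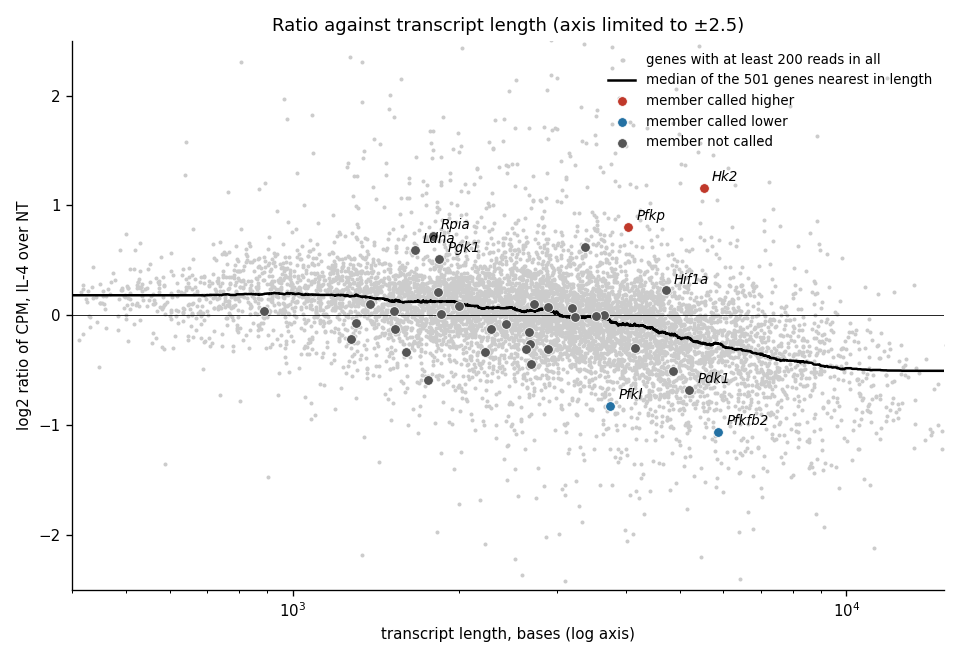
Log2 ratio of CPM (IL-4 over NT) against transcript length in bases on a log axis, with genes of at least 200 reads in grey, the running median of genes of neighbouring length as a line and the 37 members as larger points. The line falls with length, Hk2 and Pfkp lie above it and Pfkl and Pfkfb2 below it; the vertical axis is limited to 2.5 in either direction.

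Neighbouring genes of these pathways were described in 7 lists, again beside 4.07% of all genes called higher and 6.28% lower. The lists were chosen with earlier results of these data known, so their counts are descriptions only. Of 15 genes on branches from glycolysis, 4 were called higher and 0 lower. They included all 3 enzymes of serine synthesis from 3-phosphoglycerate. Phgdh, the first of these, rose from 426 to 1517 counts (1.80 on the log2 scale), or from 20.7 to 72.1 FPKM. Psat1 rose from 266 to 650 counts (1.26) and Psph from 62 to 116 counts (0.87). Gpd1, the cytosolic glycerol 3-phosphate dehydrogenase, rose from 13 to 42 counts (1.63, with a wide interval of 0.74 to 2.69). With the length trend subtracted, Psph was at 0.74, just under the threshold. The median of the 15 genes was 0.15.

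Of 6 further pentose phosphate genes tested from a list of 8, 2 were called higher and 1 lower. Prps1, which makes phosphoribosyl pyrophosphate from ribose 5-phosphate, rose from 153.09 to 437.78 counts (1.49). Its counts were not whole, so RSEM divided part of its reads among features. Shpk, the sedoheptulose kinase, rose from 28 to 49 counts (0.77, or 0.71 less the length trend). H6pd, the dehydrogenase of the endoplasmic reticulum, fell from 495 to 261 counts (-0.95).

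No gene was called among 9 glucose and lactate transporters, 8 other isoforms of glycolytic enzymes or 10 genes of pyruvate entry into mitochondria. Their median log2 ratios were 0.05, 0.08 and 0.08. Of 13 other oxygen sensing genes, Crebbp, a coactivator of HIF, was the 1 called, and it fell from 561 to 312 counts (-0.87, or -0.47 less the length trend). Of 20 hypoxia response targets outside glycolysis, 1 was called higher and 3 lower, with a median of 0.00. Bhlhe40, a transcriptional repressor, rose from 3506 to 7573 counts (1.08). Vegfa, the vascular growth factor, fell from 602 to 289 counts (-1.08). P4ha2, a collagen prolyl hydroxylase, fell from 44 to 23 counts (-0.95, interval -1.76 to -0.20). Plod2, a collagen lysyl hydroxylase, fell from 68 to 37 counts (-0.90, interval -1.52 to -0.31). Ratios over 0 and under 0 were equal in number in that list, 10 each.

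**Figure D5:**
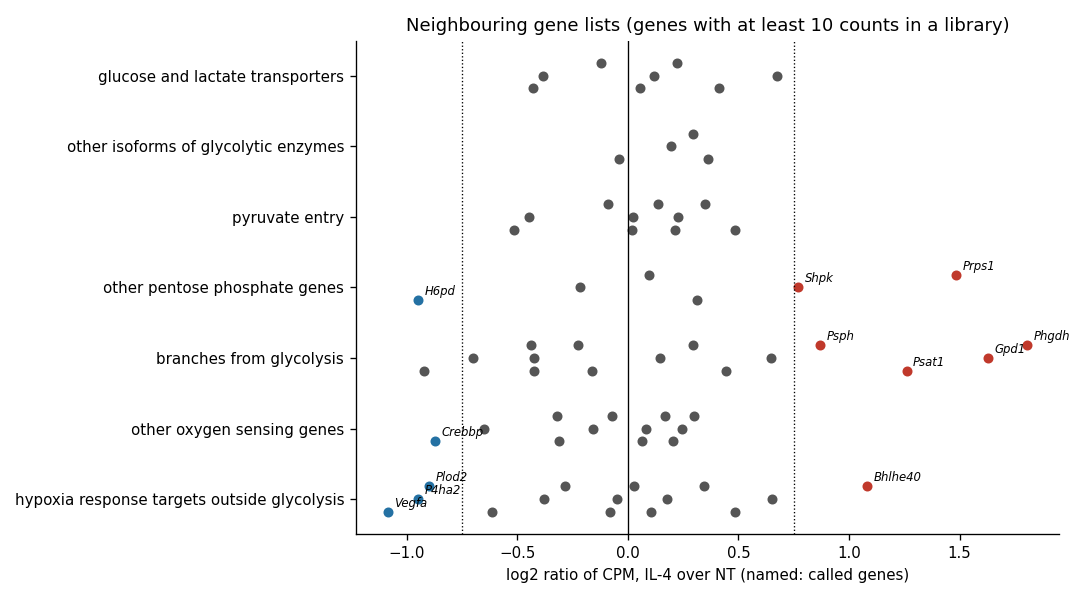
Log2 ratio of CPM (IL-4 over NT, 1 library each) for genes of the 7 neighbouring lists with at least 10 counts in 1 of the libraries, with small vertical offsets only for legibility. Red points are called higher, blue points called lower and grey points not called, and dotted lines mark 0.75 in either direction; Phgdh (1.80) lies farthest to the right and Vegfa (-1.08) farthest to the left.

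Isoform pairs were also read within each library, which removes the scaling. Of 21 pairs of isoforms of the same step, the change of the read ratio had a counting interval that excluded 0 in 14. The length trend was not subtracted from these changes. For Pdk2 to Pdk1, Pdk3 to Pdk1 and Pfkm to Pfkl the interval included the difference in length trend of the pair. For the rest of the 14 it did not. The pairs share isoforms and are not independent, no background share over other gene pairs was computed, and counting intervals exclude 0 for many genes at this depth. For Pfkfb4 to Pfkfb2 the change in reads was 1.69 on the log2 scale, which carries the change in the length of Pfkfb2, and the FPKM ratio of the pair went from 2.48 to 6.26, or 2.52-fold. Counts of 9 members were not whole in 1 or both libraries, Pfkl (1037.09 and 596.17) and Pfkfb2 among them, so RSEM divided part of their reads among features. Of 7 near-identical copies of members looked for, only G6pd2 was listed, with 0.27 counts in NT. Reads from unlisted pseudogenes of Gapdh, Ldha and the like could not be told apart from those of the gene itself.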

How the data were processed

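Total RNA of 1 NT and 1 IL-4 sample was sequenced on an Illumina HiSeq. Sample titles gave the groups. Bowtie (reference GRCm38/mm10) and RSEM were used by the authors for mapping and quantification (versions are not given in the sources used here). The deposited tables hold an expected count per gene, an RSEM estimate that need not be whole, and FPKM values that the authors scaled for length and depth. They also list a transcript length per gene. The lowest FPKM listed was 0.01, and a gene absent from a table was set to 0. Gene numbers were matched to symbols through a RefSeq table (15587 of 15623).

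Log2 ratios used CPM with 0.5 count added per library. Expected counts were rounded for a two-sided exact binomial test that set the IL-4 reads of each gene against the share of all reads in the IL-4 library (11250099 beside 11035641), with BH adjustment over 15593 genes. The thresholds were those the study states for this comparison. Its methods also name a fold over 1.5 with a false discovery rate of 0.05, which was an alternative. With 1 library per group the test compares libraries. A value was taken as whole within 0.005. All 38 members are reported, called ones with intervals. Called genes of the neighbouring lists with at least 10 counts are named. The members and lists were chosen with earlier results of these data known. The code was tested on simulated counts. Alternatives were TMM (edgeR 4.0.16) and median-of-ratios (DESeq2 1.42.0) scaling, a total that leaves out the top 100 genes, FPKM plus 0.1 or 1, an exact test in edgeR at a set biological variation of 0.1, 0.2 or 0.4 (coefficient), other thresholds, a filter at 10 counts, subtraction of a length trend (among genes with 200 reads or more) and sums with near-identical copies. Python 3.11.15, scipy 1.17.1 and R 4.3.3 were used.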

Additional observations from a re-analysis of the deposited data

How the results depend on the processing

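No paired analysis was possible because NT and IL-4 have 1 library each, and for the same reason no library could be left out. At the main thresholds 2 members were called higher and 2 lower, beside 4.07% and 6.28% of all genes. The edgeR exact test at a set biological variation of 0.2 called 1 higher (Hk2) and 1 lower (Pfkfb2), beside 2.5% and 2.71% of all genes, and at 0.4 it called 0 in each direction, beside 0.417% and 0.0513%. With a log2 ratio of 1 or more and a BH value up to 0.05, 1 was higher (Hk2) and 1 lower (Pfkfb2), beside 2.62% and 3.05%. A fold over 1.5 with the same BH limit called 5 higher, adding Ldha, Pfkfb4 and Rpia, and 3 lower, adding Pdk1, beside 4.84% and 7.74% of all genes. FPKM with 0.1 or 1 added called 1 lower (Pfkl), since Pfkfb2 was then at -0.69 or -0.51, beside 5.75% and 2.56% of all genes lower. Both called 2 higher, beside 4% and 2.51% of all genes. TMM scaling called 3 higher, adding Rpia, and 2 lower, beside 4.3% and 5.64% of all genes. The other 5 settings, the length trend included, called the same 4 genes. Over these 5, 3.85% to 4.22% of all genes were called higher and 4.74% to 6.64% lower. Members were compared with their main value 450 times, sums with copies included. The call was the same in 435, lost in 10 and gained in 5, and 0 called values reversed. Most of these comparisons were of members not called at the main thresholds, and all 10 losses fell on the 4 called members. The edgeR, threshold and count-filter settings reuse the main log2 ratio, so no value could reverse there. The 435 is thus not a measure of how stable the 4 calls were. Among members that were not called, 8 changed sign with the length trend subtracted (Aldoa, Gapdh, Pgam1, Pdk3, Tigar, Pgls, Tkt and Egln1). The median of all genes moved between -0.05 and 0.01 over these settings. The depth limits Pfkm, Aldoc, Eno3, Pfkfb1 and Egln3, each under 100 counts in both libraries.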
